A study of Homo sapiens with 44 samples.

Results

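The 10 genes described here encode the machinery that writes and removes N6-methyladenosine (m6A) on messenger RNA. They were chosen by name, with earlier results of these data known, and all are described whatever their values. They are 10 of the 19923 genes listed in each count table. METTL3 and METTL14 form the methyltransferase core. WTAP, VIRMA, ZC3H13, CBLL1 (also called HAKAI), RBM15 and RBM15B are the regulatory subunits, and FTO and ALKBH5 are the demethylases. For each gene the input level, the change of that level with a METTL3 inhibitor, and the ratio of m6A immunoprecipitate to input were taken in all 4 experiments of the series.

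m6A is placed on mRNA in the nucleus by a complex in which METTL3 holds the catalytic site and METTL14 supports RNA binding. WTAP docks this core into nuclear speckles, VIRMA is the large scaffold that ties the other regulatory subunits together, ZC3H13 bridges WTAP to the RNA-binding proteins RBM15 and RBM15B, and CBLL1 is a RING-finger protein of the same assembly. ALKBH5 removes m6A from mRNA, while FTO removes it and also the cap-adjacent m6Am mark. The complex prefers adenosines in the context GGACT and its relatives, and m6A is known to accumulate in long internal exons and around stop codons.

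The study treated neuroblastoma cells with STM2457, a small molecule that blocks the catalytic activity of METTL3, and sequenced both ordinary RNA (input) and RNA fragments captured with an antibody against m6A (meRIP, here RIP). Both cell lines, Kelly and NGP, are established lines of neuroblastoma that the labels call MYCN-amplified and wild type in genotype. Kelly cells received 8 µM STM2457 or DMSO for 1 day or 6 days, and NGP cells received the same for 6 days. The xenograft experiment used Kelly cells injected under the skin of nude mice, which lack T cells, and the mice were given 50 mg/kg STM2457 or vehicle into the peritoneum each day for 14 days. The labels call the vehicle group DMSO, and that name is kept below. Each of the 16 groups held 3 libraries in culture and 2 in the xenograft, 44 libraries in all. The labels do not say whether replicates came from separate cultures or animals, so the p-values measure the spread between these libraries, which may be technical.

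Depth and likeness set how closely each experiment can be read. The Kelly 1 day inputs held 24.1 to 26.6 M fragments assigned to genes, the Kelly 6 day inputs 5.77 to 31.5 M, the NGP inputs 5.49 to 11.6 M and the xenograft inputs 2.15 to 7.27 M. Totals of the RIP libraries ran from 4.68 to 36.5 M. Among the RIP libraries, the xenograft pairs were least alike (Spearman correlation over genes 0.643 for DMSO and 0.460 for STM2457), and the Kelly 6 day STM2457 libraries reached 0.767 to 0.865. Replicate 1 of the NGP DMSO RIP libraries correlated at 0.907 and 0.917 with the other 2, which correlated at 0.982 with each other, so the NGP RIP values it touches most are given with and without it. Sympathoadrenal markers such as GATA3 were detected in the inputs of every group.

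The genes are spread over the genome, and their GRCh38 places are given here for all but VIRMA. METTL3 lies on chromosome 14 (21498133 to 21511342, minus strand) and METTL14 on chromosome 4 (118685392 to 118715433, plus strand). WTAP lies on chromosome 6 (159725585 to 159756319, plus strand), ZC3H13 on chromosome 13 (45954465 to 46052759, minus strand) and CBLL1 on chromosome 7 (107743949 to 107761667, plus strand). RBM15 lies on chromosome 1 (110338506 to 110346681, plus strand), RBM15B on chromosome 3 (51391285 to 51397908, plus strand), FTO on chromosome 16 (53701692 to 54158512, plus strand) and ALKBH5 on chromosome 17 (18183078 to 18209954, plus strand). Of the counted exon bases, 1325 of RBM15B (20%) are shared with DCAF1, 437 of WTAP (6.81%) with SOD2 and 388 of METTL3 (6.62%) with TOX4, in each case on the opposite strand. The headers name no strand option, and fragments from such shared stretches cannot be told apart, so values of these 3 genes are less certain at those bases. The other 7 genes share no counted exon base.

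The transcripts differ in sequence and exon features that are known to go with m6A. In the canonical GENCODE 44 transcripts, all 10 genes hold at least 1 GGACT on the transcript strand, as do 87.8% of 19962 coding transcripts. The density runs from 0.432 per kb in FTO to 2.02 per kb in METTL3, against a median of 0.926 over all transcripts. RBM15B is a single exon of 6624 bases, and RBM15 keeps 2892 of its 3373 bases in 1 exon. METTL3 is built from 11 exons, the longest of 405 bases, and only 12.3% of transcripts have a shorter longest exon. The stretches below show, for 7 genes, the coding GGACT nearest to the stop codon with its neighbours, because the RIP results turn on these transcripts. GGACT is in capitals, sequences run 5′ to 3′ on the transcript strand, and they come from the GENCODE 44 transcripts on GRCh38. Whether any of these adenosines carries m6A was not measured, since the tables count fragments per gene.
METTL3, exon 3 of 11, chr14:21503336-21503360, minus strand: gtgcagaacaGGACTcgactacagt
METTL14, exon 10 of 11, chr4:118705651-118705675, plus strand: gcacagacggGGACTtcattcatgc
WTAP, exon 8 of 8, chr6:159755565-159755589, plus strand: agaatggcttGGACTcaagtgtaaa
ZC3H13, exon 14 of 19, chr13:45969368-45969392, minus strand: gtattctagaGGACTcccagaaaaa
RBM15, exon 1 of 3, chr1:110341191-110341215, plus strand: cgcagcactcGGACTgcagctactt
RBM15B, exon 1 of 1, chr3:51393033-51393057, plus strand: ttttggaaggGGACTggaccagccc
ALKBH5, exon 4 of 4, chr17:18208329-18208353, plus strand: agtcctcagaGGACTgctctgaggc
The WTAP and ALKBH5 sites lie 29 and 50 bases before the end of the coding sequence, in the last exon. The METTL3 site lies 1190 bases before it, and the RBM15 and RBM15B sites 1131 and 1022 bases before it. FTO has 0 GGACT in its coding sequence, and CBLL1 has 1.

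Without inhibitor the 10 transcripts covered a wide range of levels, given here per length as TPM, counts scaled by counted exon length and by depth. The counted length takes in all annotated exons, 5861 bases for METTL3 against 1980 in its canonical transcript. For ZC3H13 it is 10265 against 8024, so the order of the genes depends on the length used. In the Kelly 1 day DMSO inputs ZC3H13 stood at 66.7 ± 3.8 TPM (SD, n = 3), ALKBH5 at 63.4 ± 2.63 and METTL3 at 61.3 ± 3.59, and the libraries of these 3 neighbours overlapped. RBM15B (54.6 ± 2.79), RBM15 (49.3 ± 1.06), WTAP (33.4 ± 1.38), VIRMA (27.9 ± 3.33), METTL14 (14.8 ± 1.26), FTO (11.7 ± 0.537) and CBLL1 (8.39 ± 0.746) followed, each separated from the next in every library. METTL3 was thus more abundant per length than its partner METTL14 in every experiment, and CBLL1, METTL14 and FTO took the last places in all 4 experiments. In the Kelly 6 day inputs METTL3 led at 47.2 ± 2.16 TPM, and FTO was lowest at 2.13 ± 0.11. In NGP WTAP led at 58.1 ± 6.67 TPM, overlapping METTL3 at 49.4 ± 7.5, and FTO was lowest at 5.05 ± 1.75. In the xenograft ZC3H13 (45.2 ± 11.0, n = 2), ALKBH5 (43.4 ± 6.82) and RBM15B (42.3 ± 1.06) overlapped at the top, and METTL14, CBLL1 and FTO overlapped at the bottom, between 3.10 and 3.86 TPM.

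**Figure D1:**
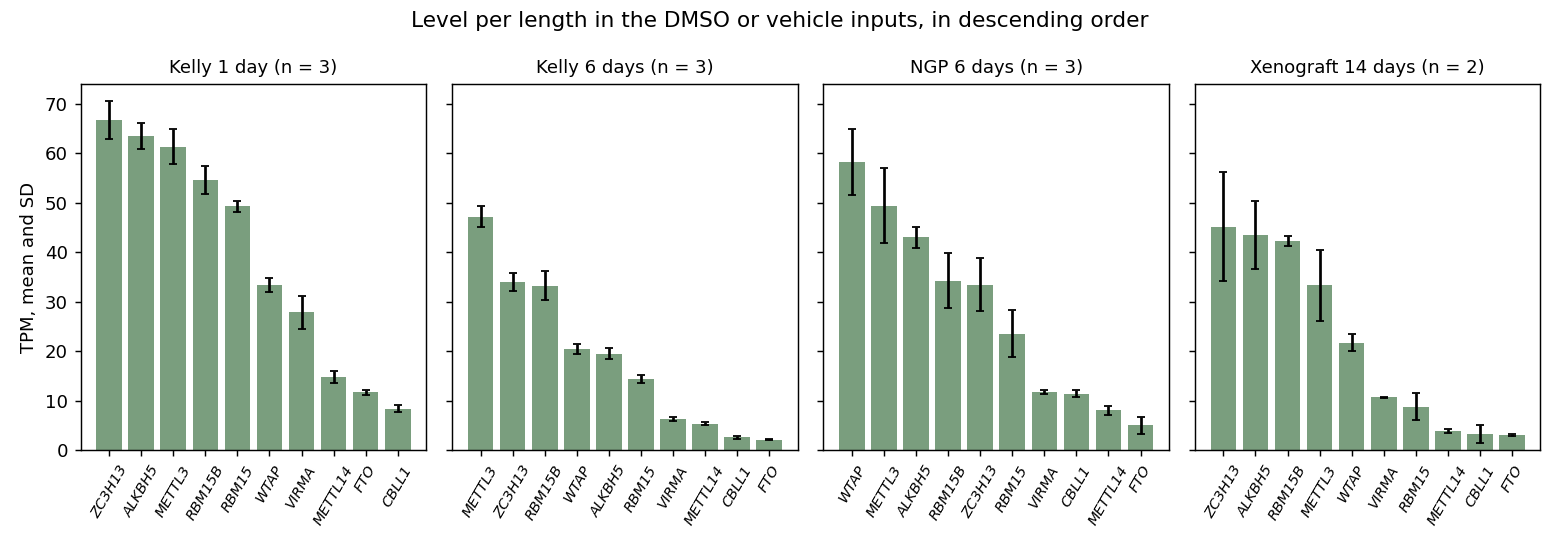
Bars give the mean TPM of each gene over the DMSO or vehicle inputs of 1 experiment, with the SD as error bar, in descending order. TPM uses the counted exon length, and the order depends on that length. METTL3 is among the 4 highest in every experiment, and METTL14, CBLL1 and FTO are the 3 lowest.

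With 1 day of STM2457, transcripts of both writer subunits and demethylases rose slightly in Kelly inputs, while METTL3 itself did not pass the test. With edgeR's quasi-likelihood test, adjusted by Benjamini-Hochberg over 13246 genes, 8 of the 10 genes rose and 0 fell, against 9.41% of all genes called higher and 8.06% called lower. The median log2 change of the 10 was 0.28, beside 0.01 over all genes tested. The rises were small, from 1.12-fold for ZC3H13 to 1.44-fold for RBM15B.

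In the core, METTL3 measured 101, 90.7 and 90.1 normalised CPM (counts scaled by depth and TMM factor) in DMSO and 103, 97.6 and 108 in STM2457, so the groups overlapped and the log2 change of 0.13 (SE 0.06) did not pass (adjusted p = 0.162). METTL14 measured 24.0, 27.9 and 27.4 in DMSO and 29.8, 34.3 and 32.8 in STM2457, with every treated library above every control, and rose by 0.29 (SE 0.09, adjusted p = 0.0343).

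The regulatory subunits moved furthest for WTAP and RBM15B. WTAP measured 53.7, 57.1 and 56.9 CPM in DMSO and 76.4, 78.9 and 80.4 in STM2457, a log2 change of 0.49 (SE 0.06, adjusted p = 4.11e-05). RBM15B measured 93.2, 100.5 and 89.7 in DMSO and 133, 135 and 140 in STM2457, a log2 change of 0.53 (SE 0.06, adjusted p = 7.93e-06). In both genes all treated libraries lay above all controls by a gap wider than the spread within either group. CBLL1 rose by 0.42 (SE 0.12, adjusted p = 0.0216), VIRMA by 0.26 (SE 0.07, adjusted p = 0.0164) and ZC3H13 by 0.17 (SE 0.05, adjusted p = 0.0282). RBM15, the close relative of RBM15B, measured 57.9 to 61.7 CPM in DMSO and 62.5 to 65.0 in STM2457, and its log2 change of 0.09 (SE 0.06, adjusted p = 0.359) did not pass.

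Both demethylases rose as well. FTO measured 63.6, 69.1 and 63.1 CPM in DMSO and 85.9, 85.7 and 87.2 in STM2457, a log2 change of 0.40 (SE 0.06, adjusted p = 0.000199). ALKBH5 measured 60.3, 62.3 and 56.3 in DMSO and 65.1, 71.7 and 74.1 in STM2457, a log2 change of 0.24 (SE 0.07, adjusted p = 0.0235). Counting libraries rather than model calls, all genes but METTL3, 9 of 10, had every treated library above every control, against 17.9% of genes tested. These calls rest on the small spread between the Kelly 1 day libraries. Of the 6 fits that each left out 1 library, 5 lost the ZC3H13 call and 4 the VIRMA call. The METTL14, CBLL1 and ALKBH5 calls were each lost in 3 of them, and those of WTAP, RBM15B and FTO in 0. The number called fell to 5 without DMSO input replicate 1, STM2457 input replicate 1 or STM2457 input replicate 3, to 3 without STM2457 input replicate 2, and to 0 when all 22 inputs shared 1 estimate of spread, where the log2 changes were nearly the same (RBM15B 0.51, adjusted p = 0.0774). That shared fit called only 26 genes in all for Kelly at 1 day, against 2315 of 13246 in the fit of this experiment alone.

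**Figure D2:**
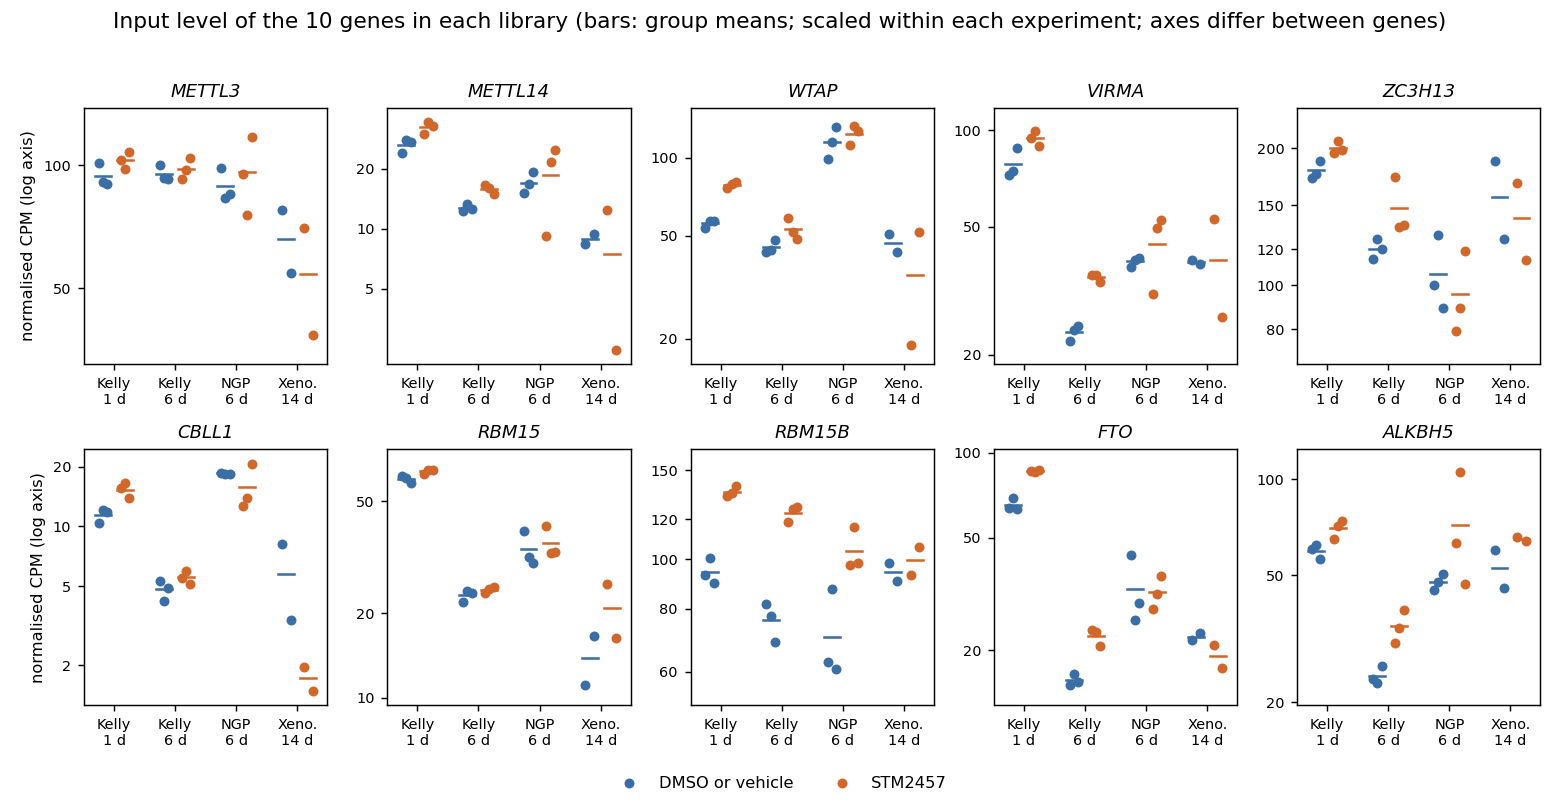
Each point is 1 input library, with the normalised CPM of the gene on a log axis whose range differs between genes, and each bar is a group mean. Values were scaled within each experiment. For RBM15B, the STM2457 libraries lie above the DMSO libraries in the 3 culture experiments, and for METTL3 the groups overlap in every experiment.

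After 6 days of STM2457 in Kelly cells, 5 of the 10 genes were higher and 0 lower, against 11.9% of 12773 genes called higher and 14.7% called lower. RBM15B again changed most in the complex, with 81.6, 77.4 and 68.8 CPM in DMSO and 118, 126 and 127 in STM2457, a log2 change of 0.70 (SE 0.07, adjusted p = 3.04e-06). VIRMA, the scaffold, measured 22.1, 24.0 and 24.7 in DMSO and 35.4, 35.3 and 33.7 in STM2457, a log2 change of 0.57 (SE 0.10, adjusted p = 0.000377). ZC3H13 rose by 0.30 (SE 0.09, adjusted p = 0.0187), a call lost without DMSO input replicate 1 or replicate 3, and its estimate was 0.18 at the lowest over single omissions. In none of these 3 genes did the groups overlap.

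The demethylases rose by similar amounts. FTO measured 15.1, 16.5 and 15.4 CPM in DMSO and 23.7, 23.2 and 20.7 in STM2457, a log2 change of 0.54 (SE 0.11, adjusted p = 0.00218). ALKBH5 measured 23.7, 23.1 and 26.0 in DMSO and 30.7, 34.2 and 39.0 in STM2457, a log2 change of 0.49 (SE 0.11, adjusted p = 0.00314). Both sets of treated libraries lay wholly above their controls.

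METTL14 (log2 change 0.33, SE 0.12, adjusted p = 0.061) and WTAP (0.24, SE 0.09, adjusted p = 0.0558) did not pass at 6 days, although neither overlapped. CBLL1 (0.22, SE 0.21), RBM15 (0.06, SE 0.10) and METTL3 (0.03, SE 0.07) overlapped between the groups. Non-overlap with the treated libraries higher held for 7 of 10 genes, against 19.6% of genes tested. When all 22 inputs shared 1 estimate of spread, RBM15B alone of the 10 was called. That fit called 791 genes in all at Kelly 6 days, against 3396 in the fit of this experiment alone.

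In NGP the spread between libraries was wider, and 0 of the 10 genes passed edgeR's quasi-likelihood test, which called 4.23% of 12289 genes, 2.07% higher. At an unadjusted p under 0.05 there were 2 of the 10, beside 2154 of all 12289 genes. DESeq2 called 1 of the 10, beside 729 genes in all. RBM15B measured 62.7, 87.2 and 60.8 CPM in DMSO and 97.6, 116 and 98.4 in STM2457, with no overlap, and a log2 change of 0.57 (SE 0.18, adjusted p = 0.0665). It was the gene of the 10 that DESeq2 called (log2 change 0.56, adjusted p = 0.0463). ALKBH5 measured 45.0, 47.7 and 50.3 in DMSO and 63.3, 105 and 47.1 in STM2457, where 1 treated library lay inside the control range, and its log2 change of 0.58 (SE 0.22, adjusted p = 0.152) did not pass. METTL3 (0.11, SE 0.17) and WTAP (0.10, SE 0.16) overlapped between the groups, and the other 6 genes lay between -0.23 and 0.18. With all 22 inputs in 1 fit RBM15B was called as well (0.57, SE 0.12, adjusted p = 0.00435). That fit called 1266 genes in all for NGP, against 520 in the fit of NGP alone. A count of 1 of the 10 was also reached without DMSO input replicate 2 and without STM2457 input replicate 3.

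In the xenograft 0 of the 10 genes were called by edgeR and 0 by DESeq2, and edgeR called 0% of 11329 genes. An unadjusted p under 0.05 was reached by 0 of the 10, beside 968 of all genes. CBLL1 had the widest difference, with 36 and 26 fragments in the DMSO inputs against 6 and 3 in the STM2457 inputs. Its log2 change of -1.72 carried an SE of 1.37 and an adjusted p of 0.79. With all 22 inputs in 1 fit, where its SE was 0.53, CBLL1 was called lower (-1.67, adjusted p = 0.0296). That fit called 2551 genes in all for the xenograft, against 0 in the fit of the xenograft alone. METTL3 measured 77.5 and 54.5 CPM in DMSO and 70.0 and 38.5 in STM2457, and the groups overlapped. The other genes lay between -0.42 and 0.59 with SEs of 0.24 to 1.01. ALKBH5 was higher in both treated libraries than in both controls, against 19.5% of genes tested, and CBLL1 and FTO were lower in both, against 21.5%.

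**Figure D3:**
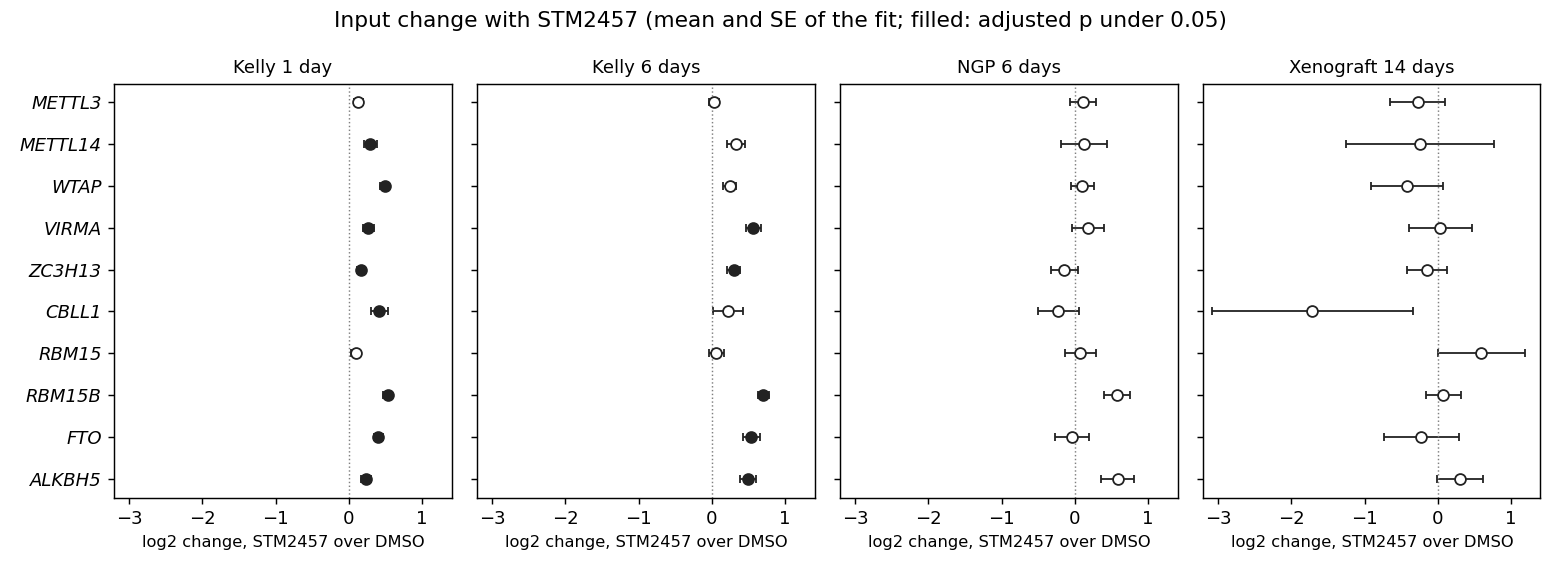
Points give the log2 change of each gene in the inputs, STM2457 over DMSO, with the SE of the fit as bars, and filled points mark an adjusted p under 0.05. In Kelly 8 genes are filled at 1 day and 5 at 6 days, all to the right of 0, and 0 are filled in NGP and in the xenograft, where the bars are wider.

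Whether the responses themselves differed between experiments was tested as an interaction. Between Kelly at 6 days and at 1 day, 0 of the 10 genes passed edgeR's test, against 8.41% of 13773 genes, and 0 passed by DESeq2. An unadjusted p under 0.05 was reached by 4 of the 10, beside 3020 of all genes. VIRMA came nearest, with a response larger by 0.32 at 6 days (SE 0.12, adjusted p = 0.096). Without STM2457 input replicate 1 or replicate 3 of the 6 day experiment, 1 gene was called. Between NGP and Kelly at 6 days, 0 of the 10 passed, against 1.36% of 13448 genes, and 0 passed by DESeq2. There 1 of the 10 reached an unadjusted p under 0.05, beside 1747 of all genes. The RBM15B response was smaller by 0.15 in NGP (SE 0.19, adjusted p = 0.801). An adjusted p above the threshold does not show that the responses were alike.

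The rest of the m6A pathway, 26 listed genes of which 25 were tested in each comparison, gave calls in both directions. In Kelly inputs at 1 day 2 of 25 rose and 5 fell, beside the 9.41% and 8.06% of all genes. METTL16, a separate methyltransferase that acts on U6 RNA and on MAT2A mRNA, rose by 0.31 (SE 0.06, adjusted p = 0.00211), and the nuclear reader YTHDC1 by 0.22 (SE 0.06, adjusted p = 0.0102). RNPS1, a splicing cofactor bound to the exon junction complex, fell by 0.26 on the log2 scale (SE 0.05, adjusted p = 0.00102), and the others that fell were IGF2BP1, HNRNPC, TRMT112 and RBM8A. At 6 days 3 rose (METTL16, YTHDC1 and the cytoplasmic reader YTHDF2) and 4 fell (METTL5, its activator TRMT112, MAT2A and RNPS1), beside 11.9% and 14.7% of all genes. METTL5, which methylates 18S ribosomal RNA, fell by 0.54 (SE 0.08, adjusted p = 0.000186). In NGP 1 of the 25 was lower, MAGOHB, beside 2.16% of all genes, and in the xenograft 0 were called by edgeR. The median log2 change of the 25 genes was -0.10 at 1 day and -0.03 at 6 days, beside medians of 0.28 and 0.32 for the 10 writer and demethylase genes.

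The RIP libraries show how strongly each transcript was captured by the m6A antibody, as the ratio of normalised CPM in a RIP library to the mean input of its group. The ratio is relative to the typical gene, because spike-in RNAs named in the labels were not analysed here. A transcript counts as enriched at an adjusted p under 0.05 and a log2 ratio of at least 1. In Kelly DMSO at 1 day 6 of the 10 genes were enriched and 0 depleted, against 26.3% of 13669 genes enriched and 29.1% depleted (55.5% in either direction). At 6 days again 6 were enriched and 0 depleted, against 25.8% of 13324 genes enriched and 27.3% depleted (53.1% in either direction). In NGP 6 were enriched, against 20.9% of 13088 genes, and 1 was depleted, against 19% (40% in either direction). In the xenograft 1 was enriched, against 1.61% of 12626 genes. The median log2 ratio of the 10 was 1.12, 1.51, 1.39 and 1.44 in these 4 experiments, in the order given, beside medians of -0.07, -0.10, 0.08 and -0.16 over all genes. Of the 25 other pathway genes, 4 were enriched and 14 depleted in Kelly at 1 day, 4 and 14 at 6 days, 6 and 6 in NGP and 1 and 3 in the xenograft. In the Kelly 1 day experiment the file headers place inputs and RIP libraries in separate folders, so there a folder and the library type cannot be told apart.

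The RNA-binding adaptors were captured most in Kelly. RBM15 reached ratios of 9.96, 8.79 and 9.30 in the 1 day DMSO libraries and 9.12, 9.21 and 8.92 in the 6 day DMSO libraries, log2 ratios of 3.23 (SE 0.07, adjusted p = 9.11e-13) and 3.18 (SE 0.18, adjusted p = 5.03e-08). RBM15B reached 6.50, 5.58 and 6.04 at 1 day and 8.60, 6.59 and 6.79 at 6 days, log2 ratios of 2.59 (SE 0.07) and 2.87 (SE 0.17). In both genes all 6 Kelly DMSO libraries had ratios above 5. ZC3H13 was at a log2 ratio of 2.28 (SE 0.09) at 1 day, 2.29 (SE 0.43) at 6 days and 2.64 (SE 0.22) in NGP, and so was enriched in the 3 culture experiments. In the xenograft RBM15 had ratios of 11.6 and 9.62 (log2 ratio 3.40, SE 0.72, adjusted p = 0.0397), while RBM15B (2.67, SE 0.66, adjusted p = 0.0584) and ZC3H13 (2.02, SE 0.52, adjusted p = 0.0646) did not pass. The xenograft count went to 0 without either DMSO RIP library or without any 1 of the 4 inputs, and to 3 without either STM2457 RIP library.

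WTAP was enriched in all 3 culture experiments, at log2 ratios of 2.49 (SE 0.12) and 1.48 (SE 0.22) in Kelly at 1 and 6 days and 1.15 (SE 0.18) in NGP. CBLL1 was enriched in the same 3, at 1.02 (SE 0.27), 2.21 (SE 0.48) and 1.81 (SE 0.21). At 1 day its estimate sat at the threshold of 1, and the call was lost without DMSO input replicate 1 or DMSO RIP replicate 1, with 0.78 at the lowest. METTL14 was at 1.22 (SE 0.16) in Kelly at 1 day and 2.14 (SE 0.30) in NGP, and at 0.78 (SE 0.32, adjusted p = 0.0553) in Kelly at 6 days. METTL3 stayed near the typical gene, at 0.45 (SE 0.10), 0.38 (SE 0.23) and -0.31 (SE 0.20) in the 3 culture experiments. VIRMA was enriched in NGP (1.64, SE 0.21) and under the threshold in Kelly (0.58, SE 0.14, and 0.66, SE 0.49). The estimate for METTL14 was above that for METTL3 in every culture experiment, and that difference was not tested.

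**Figure D4:**
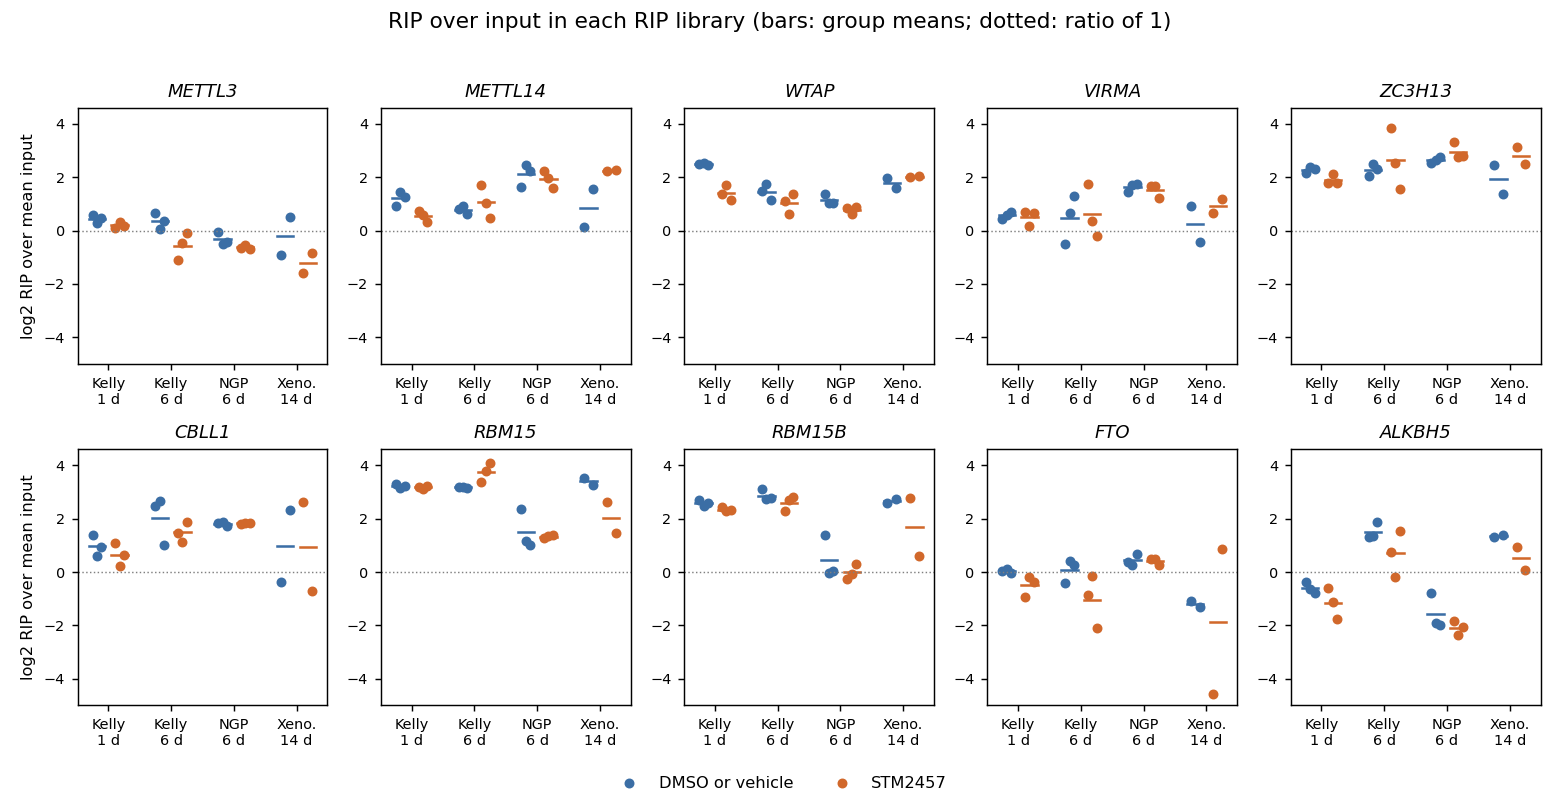
Each point is the log2 ratio of 1 RIP library to the mean input of its group, bars are group means, and the dotted line is a ratio of 1. RBM15 lies above 3 in Kelly DMSO libraries, FTO lies between -0.41 and 0.69 in the DMSO libraries of the 3 culture experiments, and ALKBH5 lies above 1 in Kelly at 6 days and in the xenograft and below 0 in the other DMSO libraries.

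The demethylase transcripts behaved unlike each other. FTO, with the lowest GGACT density of the 10 and an exon of 10180 bases, had ratios of 1.04, 1.09 and 0.988 in Kelly DMSO at 1 day (log2 ratio 0.05, SE 0.15), 0.752, 1.33 and 1.20 at 6 days (0.13, SE 0.44) and 1.29, 1.20 and 1.62 in NGP (0.45, SE 0.22, adjusted p = 0.0921). ALKBH5 had ratios of 0.766, 0.652 and 0.582 in Kelly DMSO at 1 day, 2.50, 2.53 and 3.63 at 6 days, and 0.581, 0.267 and 0.251 in NGP. The 3 groups of ALKBH5 ratios did not overlap between Kelly at 6 days and the other 2. Its log2 ratio was -0.59 (SE 0.22), 1.53 (SE 0.35, adjusted p = 0.00274) and -1.45 (SE 0.30, adjusted p = 0.000274).

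The difference in DMSO capture between experiments was tested directly, in a comparison added after the data were seen. Between Kelly at 6 days and at 1 day, 3 of the 10 genes were called, against 24.4% of 13765 genes. ALKBH5 was higher at 6 days by 2.33 (SE 0.25, adjusted p = 2.94e-05), RBM15B higher by 0.48 (SE 0.15, adjusted p = 0.0308) and WTAP lower, at -0.80 (SE 0.18, adjusted p = 0.00619). The count was 6 without the 6 day DMSO RIP replicate 1, and the RBM15B call was lost in 5 of the 12 fits that left out 1 library each. Between NGP and Kelly at 6 days, 5 of the 10 were called, against 46.1% of 13684 genes. ALKBH5 (-3.15, SE 0.41, adjusted p = 3.21e-05), RBM15B (-2.44, SE 0.43, adjusted p = 0.000328), RBM15 (-1.72, SE 0.39, adjusted p = 0.00207) and METTL3 (-0.86, SE 0.26, adjusted p = 0.0134) were lower in NGP, and METTL14 (1.19, SE 0.34, adjusted p = 0.00976) was higher. These 2 comparisons share the Kelly 6 day libraries. Each experiment lay in folders of its own in the file headers, so experiment and any processing batch cannot be told apart.

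NGP DMSO RIP replicate 1 touches several of these values. Its ratio was 2.59 for RBM15B, where the other 2 libraries had 0.972 and 1.03, and 5.08 for RBM15, where the others had 2.24 and 2.04. For ALKBH5 it had 0.581, above the 0.267 and 0.251 of the others. Without it, the log2 ratio in NGP was 0.02 for RBM15B (SE 0.20), 1.11 for RBM15 (SE 0.19) and -1.93 for ALKBH5 (SE 0.27), and the differences from Kelly at 6 days were -3.03, -2.25 and -3.63. For METTL14 and METTL3 the log2 ratios were then 2.36 and -0.45, and the differences from Kelly 1.41 and -1.002. For ZC3H13, CBLL1, VIRMA, WTAP and FTO the ratios were 2.71, 1.81, 1.74, 1.04 and 0.50. Without it 5 genes were called for that difference as well.

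Relations with transcript structure across genes were weak to moderate. Over 13348 genes in Kelly DMSO at 1 day, the log2 ratio of RIP over input had a Spearman correlation of 0.307 with the longest exon and 0.0826 with GGACT density. The values were 0.300 and 0.0926 over 13048 genes in Kelly at 6 days and 0.347 and -0.110 over 12799 genes in NGP. Genes are not independent replicates, and these values are descriptions. In the xenograft they were 0.209 and 0.0721 over 12374 genes. With the number of exons the correlations were -0.321, -0.282, -0.173 and -0.240 in Kelly at 1 and 6 days, NGP and the xenograft. In Kelly the 10 genes did not follow exon length in a simple order: RBM15B and RBM15, each with most or all of its bases in 1 exon, had the highest ratios of the 10, but FTO, with a longer exon than 98.9% of transcripts, was at a ratio near 1.

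With 1 day of STM2457 in Kelly cells, WTAP lost capture relative to the typical gene. Its ratio was 5.58, 5.79 and 5.51 in DMSO and 2.55, 3.23 and 2.21 in STM2457, so the groups were far apart. The interaction of treatment and library type gave a log2 change of -1.08 (SE 0.16, adjusted p = 0.00047), and WTAP was the 1 gene of the 10 called, against 17.2% of 13669 genes called in either direction, 7.62% lower and 9.53% higher. METTL14 (-0.67, adjusted p = 0.0645), ZC3H13 (-0.37, adjusted p = 0.0664), RBM15B (-0.25, adjusted p = 0.106) and FTO (-0.52, adjusted p = 0.129) also had all 3 treated ratios below all controls without passing, and such non-overlap held for 5 of 10 genes against 18.7% of genes tested. RBM15 kept its high capture, with ratios of 9.17, 8.62 and 9.32 in STM2457. All 10 point estimates were below 0, from -1.08 to -0.05, with a median of -0.35 beside -0.03 over all genes. The count was 2 without DMSO RIP replicate 1 and 3 without STM2457 RIP replicate 1 or replicate 2.

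The count depended on the scale. When RIP libraries were scaled to the 13 mitochondrially encoded mRNAs, the median of all genes moved to -1.47 and all 10 genes were called at 1 day, with WTAP at -2.52 (SE 0.15). Most genes were called there, 8361 of 13669. The same scaling moved the median to -2.06 at Kelly 6 days, where 8 of the 10 were called, beside 5225 of all 13324 genes. That scale also moved the median of the DMSO ratio of RIP over input to 1.57 at 1 day and 4.77 at 6 days, and turned ALKBH5 at 1 day to 1.06 (adjusted p = 0.00161). In NGP it left ALKBH5 at -0.58 (SE 0.44, adjusted p = 0.283), no longer called depleted. With TMM factors 9 of the 25 pathway genes rose in relative capture at 1 day and 1, PCIF1, fell. The 9 included 4 of the 5 exon junction genes, such as MAGOH (1.92, SE 0.22, adjusted p = 7.77e-05) and RBM8A (1.57, SE 0.11, adjusted p = 2.01e-06).

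At later times and in the xenograft 0 of the 10 genes changed in capture by edgeR or by DESeq2. In Kelly at 6 days 2.06% of genes were called. An unadjusted p under 0.05 was reached by 2 of the 10, beside 2207 of all 13324 genes. WTAP was at -0.42 (SE 0.30, adjusted p = 0.563). Its ratios were 2.80, 3.38 and 2.19 in DMSO and 2.17, 1.54 and 2.58 in STM2457. The groups overlapped. RBM15 had all treated ratios above all controls (10.5, 14.0 and 16.9 against 8.92 to 9.21), against 12.2% of genes tested, and METTL3 had all below (0.464, 0.715 and 0.934 against 1.04 to 1.57), against 8.41%. Neither passed, at log2 changes of 0.60 (SE 0.23, adjusted p = 0.221) and -0.88 (SE 0.33, adjusted p = 0.201). With the mitochondrial reference the RBM15 estimate turned to -1.66 (SE 0.73, adjusted p = 0.0721), so its direction depends on the scale. Without STM2457 RIP replicate 1, RBM15 was called, at 0.77. In NGP 0% of genes were called and 0 of the 10 reached an unadjusted p under 0.05, beside 764 of all genes. WTAP had ratios of 2.59, 2.04 and 2.04 in DMSO and 1.79, 1.56 and 1.85 in STM2457, and a log2 change of -0.36 (SE 0.25, adjusted p = 0.852). All treated ratios lay below all controls for WTAP and METTL3, against 13.6% of genes tested, and above all controls for ZC3H13, against 12.7%. Without DMSO RIP replicate 1 the WTAP change was -0.25. In the xenograft 0% of genes were called and 0 of the 10 reached an unadjusted p under 0.05, beside 809 of all genes. Point estimates of the 10 in the xenograft ran from -1.26 to 1.22. There both treated ratios lay above both controls for METTL14, WTAP and ZC3H13, against 14.1% of genes tested, and below them for RBM15 and ALKBH5, against 15.1%.

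Input levels without inhibitor also differed between the experiments. Between Kelly DMSO at 6 days and at 1 day, 8 of the 10 genes were called, but so were 79.1% of 13221 genes. FTO was lower at 6 days by a log2 difference of -1.74 (SE 0.09), VIRMA at -1.41 (SE 0.09), RBM15 at -1.05 (SE 0.09), ALKBH5 at -0.98 (SE 0.09), CBLL1 at -0.93 (SE 0.18), METTL14 at -0.73 (SE 0.12) and ZC3H13 at -0.25 (SE 0.06). METTL3 was at 0.34 (SE 0.07) with TMM factors but at -0.02 with plain library sizes, a scale on which the median over genes was -0.42 in place of -0.06, so its direction is not settled. The difference correlated with counted exon length across genes at a Spearman value of -0.395, and FTO has the longest counted exons of the 10, with 21379 bases. The part of transcript length in these differences was not tested.

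Between NGP and Kelly at 6 days, 7 of the 10 genes were called, against 60.8% of 12940 genes. CBLL1 (1.76, SE 0.21), WTAP (1.17, SE 0.12), FTO (0.90, SE 0.20), ALKBH5 (0.80, SE 0.12) and VIRMA (0.55, SE 0.13) were higher in NGP, and METTL3 (-0.27, SE 0.10) and ZC3H13 (-0.37, SE 0.13) were lower. The METTL3 call was lost in 4 of the 6 fits that left out 1 library and the ZC3H13 call in 5, namely without any 1 of the Kelly DMSO inputs or NGP DMSO input replicate 3, and for ZC3H13 also without NGP DMSO input replicate 1. With plain library sizes neither was called (-0.08, adjusted p = 0.559, and -0.17, adjusted p = 0.241). Between xenograft DMSO and Kelly DMSO at 6 days, 5 of the 10 were called, against 40.8% of 13065 genes. All 5 were higher in the tumours, against 20.4% of genes. These were ALKBH5 (1.29, SE 0.15), VIRMA (0.89, SE 0.14), FTO (0.69, SE 0.18), ZC3H13 (0.54, SE 0.14) and RBM15B (0.49, SE 0.10). Kelly DMSO at 1 day was not in this fit. Mean CPM there was higher for FTO (64.7 against 23.3 in the tumours) and VIRMA (77.9 against 40.4). The same held for ZC3H13 (177 against 163) and ALKBH5 (59.1 against 54.9), while RBM15B was at 93.6 against 98.4. These differences from 1 day were not tested. The number called was 3 without any 1 of the Kelly 6 day DMSO inputs and 8 without xenograft DMSO input replicate 2. Of 6 fibroblast markers, 3 were detected in the xenograft DMSO inputs, summing to 113 to 144 CPM, and 5 in the Kelly 6 day DMSO inputs, summing to 137 to 143, with COL1A2 at 0 in both. The 4 endothelial markers summed to 15.4 to 17.6 CPM in the xenograft and 1.70 to 3.91 in culture, with 3 detected and PECAM1 at 0 in both. Only 1 of the 4 had a mean of at least 1 CPM, in either group. The 6 blood markers summed to 0.465 to 6.19 CPM in the xenograft and 8.99 to 12.6 in culture, with HBB and PTPRC at 0 in both. Of 4 Schwann markers 3 were counted, summing to 0.550 to 5.58 CPM in the xenograft and 0.081 to 0.313 in culture. Counts were taken over human exons, while the hosts were mice. The part of host RNA or of other cells in the level differences was not tested.

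The genes whose input level was most like that of METTL3 were none of its partners. Over the 18 culture inputs, centred within each experiment, the 3 genes of 9373 most like METTL3 were TUBB (Pearson r 0.922), CCDC51 (0.915) and PSMB5 (0.904). Of the 9 other writer and demethylase genes, FTO was nearest at 0.586 and ALKBH5 farthest at -0.01, and METTL14 was at 0.204. These libraries share depth and composition within an experiment, and the values are descriptions.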

How the data were processed

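RNA-seq inputs and m6A RIP libraries were analysed from the raw counts per gene that the authors deposited, 1 table a library. Per the submitters' processing notes, FastQC 0.11.5, Trimmomatic 0.36, HISAT2 2.1.0 and Subread 1.5.3 were used, and per the file headers featureCounts 1.5.3 counted fragments over GENCODE 33 exons. RIP counts therefore cover whole genes, and a ratio of RIP to input does not place a site. Spike-in RNAs were not analysed here.

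The 10 genes and the pathway lists were chosen with earlier results of these data known. All 10, whatever their values, and the listed pathway genes were eligible to be named, with the 3 genes most like METTL3 (log2 of CPM + 1, mean of at least 10 CPM). Each comparison was fitted across all genes with edgeR 4.0.16 (quasi-likelihood test, TMM factors, filterByExpr with a minimum count of 10 and total of 15) in R 4.3.3, and p-values were adjusted by Benjamini-Hochberg over all genes tested. Adjusted p under 0.05 was a call. Enrichment change is the interaction of treatment and library type, fitted over the inputs and RIP libraries of 1 experiment. Scripts were tested on simulated data. Alternatives were RLE factors, no low-count filter, DESeq2 1.42.0, a replicate block, 13 mitochondrial mRNAs as the RIP reference, all 22 inputs in 1 fit and leaving out each library. Plain library sizes and the tests of differences in RIP over input were added after seeing the data. In 40 pairs of replicates the counts differed beyond sampling noise (lowest chi-square per degree of freedom 2.73), so none was counted as 1 library. Depth is given with the samples.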

Additional observations from a re-analysis of the deposited data

Results flagged for a closer look

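Some values pointed one way in every library of one experiment and the other way in every library of another. For changes with STM2457, each treated library was set against the mean of its controls, so treated and control libraries could still overlap. The share of all genes that met this rule was not counted. The differences in this paragraph are the second experiment minus the first, on the log2 scale, and each difference was not tested. For the input change with STM2457, CBLL1 differed by -2.174 between Kelly at 1 day and the xenograft and by -1.958 between Kelly at 6 days and the xenograft, where its counts were 3 to 36. FTO differed by -0.637 and -0.757 in the same pairs. For RIP over input in DMSO, METTL3 differed by -0.768 between Kelly at 1 day and NGP. FTO differed by -1.647 between NGP and the xenograft. ALKBH5 differed by 1.95 between Kelly at 1 day and the xenograft and by 2.915 between NGP and the xenograft. With the mitochondrial reference ALKBH5 at Kelly 1 day was at 1.06 and METTL3 in NGP at 0.48, so those directions depend on the scale.

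For the change of capture with STM2457, the same kind of opposite movement was seen in METTL14, WTAP, RBM15, ZC3H13 and CBLL1. It was not tested there either, and the share of all genes with such movement was not counted. METTL14 differed by 2.058 between Kelly at 1 day and the xenograft. For WTAP the xenograft value lay above that of Kelly at 1 day by 1.332, above that of Kelly at 6 days by 0.659 and above that of NGP by 0.591. RBM15 differed by 0.622 between Kelly at 1 and 6 days, by -0.754 between Kelly at 6 days and NGP and by -1.939 between Kelly at 6 days and the xenograft. Without NGP DMSO RIP replicate 1 the RBM15 change in NGP was 0.22, so the opposite movement there rests on that library. With the mitochondrial reference the RBM15 change in Kelly at 6 days was -1.66. ZC3H13 differed by 0.702 between Kelly at 1 day and NGP and by 1.275 between Kelly at 1 day and the xenograft. CBLL1 differed by 0.573 between Kelly at 6 days and NGP. Its treated ratios in NGP, 3.51, 3.60 and 3.61, lay inside the DMSO range of 3.33 to 3.65. The xenograft values rest on 2 libraries a group.

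The differences in DMSO capture passed a test of the difference itself in 8 cases (edgeR's quasi-likelihood test, adjusted p under 0.05). Over all genes, the same test called 24.4% between the Kelly times and 46.1% between NGP and Kelly at 6 days. Between Kelly at 6 days and at 1 day the cases were WTAP at -0.804, RBM15B at 0.482 and ALKBH5 at 2.328. Between NGP and Kelly at 6 days they were METTL3 at -0.861, METTL14 at 1.192, RBM15 at -1.721, RBM15B at -2.436 and ALKBH5 at -3.154. Without NGP DMSO RIP replicate 1 they were -1.002, 1.41, -2.25, -3.03 and -3.63 in the same order. The METTL3 ratio in NGP itself was -0.45 without that library.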

How the results depend on the processing

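The number of the 10 genes called moved with the settings as follows, and the cause was not tested. For the input change it went from 8 to 0 at Kelly 1 day, from 5 to 1 at Kelly 6 days, and from 0 to 1 in NGP and the xenograft when all 22 inputs shared 1 fit. Over all genes the calls went from 2315 to 26 at Kelly 1 day and from 3396 to 791 at Kelly 6 days. They went from 520 to 1266 in NGP and from 0 to 2551 in the xenograft. In NGP the number of the 10 called was also 1 with plain library sizes, without the low-count filter and with DESeq2. DESeq2 called 729 genes in all there. Leaving out 1 library gave 3 to 7 at Kelly 1 day, 4 to 7 at Kelly 6 days, and 0 to 1 in NGP and the xenograft (1 without STM2457 input replicate 2). For RIP over input at Kelly 1 day it gave 5 to 6. For RIP over input the mitochondrial reference gave 10 at Kelly 1 day and 10 at 6 days, and 0 in the xenograft, where plain library sizes gave 2, no filter 3, DESeq2 3 and single omissions 0 to 3. Over all genes the mitochondrial reference called 8072 of 13669 at Kelly 1 day, 11130 of 13324 at 6 days and 0 in the xenograft. In the xenograft DESeq2 called 2396 genes in all, against 474 by edgeR with TMM factors. For the enrichment change plain library sizes gave 4 at Kelly 1 day and 1 at 6 days, the mitochondrial reference 10 and 8, and single omissions 1 to 3 and 0 to 1. There the mitochondrial reference called 8361 of 13669 genes at 1 day and 5225 of 13324 at 6 days. For the difference of input change between the Kelly times, plain library sizes and no filter each gave 1, and single omissions 0 to 1. For the DMSO level in the xenograft single omissions gave 3 to 8. For the difference in RIP over input they gave 2 to 6 between the Kelly times and 5 to 8 for NGP (8 without the Kelly 6 day DMSO RIP replicate 3).

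Whether replicate numbers pair the samples is not settled. Deviations of same-numbered libraries from their group mean correlated at -0.37 to 0.25, but each mean came from only 2 or 3 libraries. In Kelly at 6 days, 2 of 3 numbers matched best between input and RIP, in DMSO and in STM2457. In the other culture comparisons at most 1 of 3 did. With 2 libraries the deviations mirror each other, so the xenograft cannot be judged. With the replicate number as a block, 5 genes were called for the input change at Kelly 1 day, 1 in NGP and 3 for RIP over input in the xenograft.

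The directions that turned among the values given here were of uncalled values, except METTL3 between the Kelly times. With plain library sizes METTL3, WTAP and RBM15B were at -0.0222, -0.35 and -0.36 for that level difference, RBM15B at -0.0531 for the xenograft input change and FTO at -0.0043 for RIP over input at Kelly 1 day. Without the low-count filter WTAP and RBM15B were at -0.0258 and -0.0315 between the Kelly times. With the mitochondrial reference, ALKBH5 at Kelly 1 day was at 1.06 and METTL3 in NGP at 0.48 for RIP over input, and for the enrichment change WTAP in the xenograft was at -0.15 and RBM15 at Kelly 6 days at -1.66. FTO at Kelly 6 days was at -0.0098 with RLE factors and -0.0099 with DESeq2. Single omissions gave FTO at Kelly 6 days -0.0557 to 0.33, METTL3 input change -0.0562 to 0.26 in NGP and -0.78 to 0.0872 in the xenograft, RBM15B input change -0.0235 to 0.16 in the xenograft, RBM15 enrichment change in NGP -0.54 to 0.22, WTAP enrichment change in the xenograft -0.32 to 1.13, WTAP and RBM15B between the Kelly times -0.0348 to 0.0388 and -0.0495 to 0.0717, and the RBM15B difference of input change for NGP -0.25 to 0.0077. Of 881 refitted values of called genes 1 had the other sign, and of 1939 of uncalled genes 112 did. Of these, 5 were called with the other sign: WTAP (adjusted p = 0.000374) and RBM15B (adjusted p = 0.000141) between the Kelly times with plain library sizes, and, with the mitochondrial reference, ALKBH5 for RIP over input at Kelly 1 day (adjusted p = 0.00161) and METTL14 (-1.93, adjusted p = 0.0495) and VIRMA (-2.51, adjusted p = 0.0458) for the enrichment change at Kelly 6 days. Depth limits the xenograft most, where CBLL1 had 3 to 36 counts in the inputs.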
